A study of Mus musculus with 4 samples.

Results

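Transcripts of the proteins that build the red cell membrane and its skeleton were examined in 2 mouse cell populations measured on single-colour oligonucleotide arrays. The genes are Slc4a1, Rhag, Epb42, Ank1, Sptb, Epb41 and Ermap, and every probe set whose only gene symbol in the array platform's annotation is one of them was taken. This gave 7 of the 12422 probe sets tested, from 4 of the 7 genes, with 1 probe set for Slc4a1, 1 for Rhag, 2 for Epb42 and 3 for Ank1. Sptb, Epb41 and Ermap were not analysed here.

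The membrane of a red cell is held by a network of spectrin under the lipid layer. Band 3, the anion exchanger encoded by Slc4a1, is the most abundant protein of that membrane, and ankyrin-1, encoded by Ank1, ties it to beta-spectrin (Sptb). Protein 4.2, encoded by Epb42, strengthens the link between band 3 and ankyrin, and protein 4.1 (Epb41) joins spectrin to actin. The Rh-associated glycoprotein encoded by Rhag carries the Rh proteins to the surface and sits with band 3 in one complex. The first red cells of the mouse arise in the yolk sac from mesoderm that also gives endothelium, and they express these proteins as they mature.

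All 4 arrays hold RNA from derivatives of 1 mouse embryonic stem (ES) cell line, Scl+/hCD4, whose human CD4 reports the blood transcription factor Scl. According to the study text, 2.75-day embryoid bodies grown with FCS gave Flk-1+Scl+ cells by flow sorting, called hemangioblasts, and further embryoid body cells were replated so that blast colonies could be picked and pooled. The titles name 2 arrays Hemangioblast and 2 arrays hCD4, with sources given as differentiated cultured hemangioblasts and cultured hCD4 ES cells, whereas the study text names its populations hCD4 and Blast. These labels do not settle which arrays hold sorted cells, picked colonies or ES cells, so the groups are called here by their titles, and a change is always Hemangioblast minus hCD4. Whether the paired arrays of a group are separate cultures is not stated in the labels, and the p-values then reflect only array-to-array spread, which may be technical.

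Values are intensities scaled to a common trimmed mean, in arbitrary units, and means are given with the SD of 2 arrays. Changes and folds are those of log2(scaled intensity + 16), which understates the change of dim probe sets. A probe set passed the test where its p-value from limma, adjusted by Benjamini-Hochberg over all 12422 probe sets, was under 0.05. The lower quartile of scaled intensity was 64.5 to 81.1 and the median 180.3 to 207 over the 4 arrays. The number of arrays limits the precision, and no level of one probe set is set against that of another.

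Transcripts of 2 membrane proteins that span the lipid layer, Rhag and Slc4a1, rose on the Hemangioblast arrays. Rhag rose 4.64-fold and Slc4a1 2.35-fold. In such bulk samples, fewer cells of a type and less RNA per cell cannot be told apart. The probe sets for the attachment proteins, protein 4.2 and ankyrin-1, had changes in the same direction that did not pass. In all, 2 of the 7 probe sets were called higher and 0 lower, where 4.48% of all probe sets were called, 2.91% higher and 1.56% lower. The median log2 change of the 7 was 0.64, from 0.07 to 2.21, and that of all probe sets was 0.04. On 5 of the 7 both Hemangioblast arrays lay above both hCD4 arrays, which was the case for 24.8% of all probe sets. An unadjusted p under 0.05 was found for 4 of the 7, all with positive changes, and with a positive change for 8.9% of all probe sets.

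**Figure D1:**
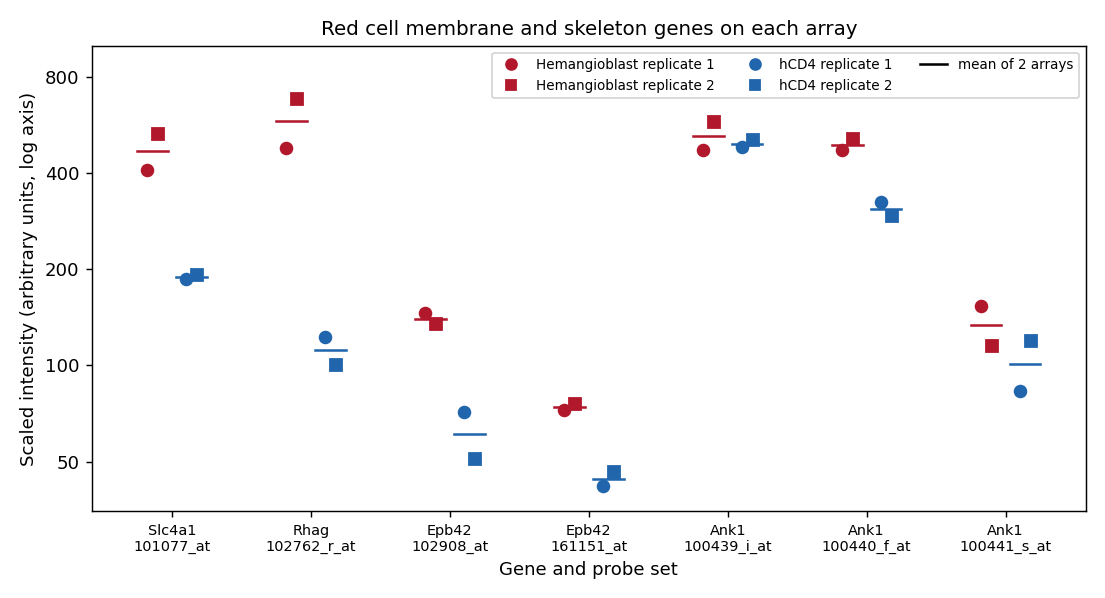
Scaled intensity (arbitrary units, log axis) of each member probe set on each array, with red for Hemangioblast and blue for hCD4, circles for replicate 1, squares for replicate 2 and lines for the mean of 2 arrays. The groups are apart for Slc4a1, Rhag, both Epb42 probe sets and Ank1 100440_f_at, and they overlap for the other Ank1 probe sets.

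Rhag, the ammonia-conducting partner of the Rh proteins, had scaled intensities of 480.2 and 684 on replicates 1 and 2 of Hemangioblast and of 122 and 101 on those of hCD4. Both Hemangioblast arrays were well above both hCD4 arrays, and Hemangioblast replicate 2 was the highest. The means were 582 ± 144 (SD, n = 2) and 111 ± 15.4. The log2 change was 2.21 (SE 0.250, 95% interval 1.64 to 2.79, limma adjusted p = 0.00197). Over the 4 pairings of a Hemangioblast with an hCD4 array the ratio ran from 3.92 to 6.80. Only 0.781% of all probe sets had a larger positive change than Rhag. Rhag was measured by a single probe set, 102762_r_at. Its ending _r marks, in the array maker's naming, a probe set for which design rules were relaxed. The change passed in each of the 4 fits that leave out 1 array (adjusted p of 0.0041 to 0.0195).

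Slc4a1, which exchanges chloride for bicarbonate across the red cell membrane, was at 408 and 531 on the Hemangioblast arrays, against 186 and 192 for hCD4. The groups did not overlap, and the hCD4 arrays lay close together. The means were 469 ± 86.5 (SD, n = 2) and 189 ± 4.11, and the log2 change was 1.23 (SE 0.218, 95% interval 0.73 to 1.73, limma adjusted p = 0.0175). The pairwise ratios were 2.13 to 2.85, and 2.77% of all probe sets had a larger change. The call was lost without Hemangioblast replicate 2 (log2 change 1.05, adjusted p = 0.109), hCD4 replicate 1 (1.21, adjusted p = 0.099) or hCD4 replicate 2 (1.25, adjusted p = 0.0987), and when the variance model had no intensity trend (adjusted p = 0.0792). It was kept without Hemangioblast replicate 1 (1.42, adjusted p = 0.0261). The difference between the changes of Rhag and Slc4a1 was not tested.

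Epb42 was measured by a pair of probe sets, and neither passed. On 102908_at its scaled intensity was 146 and 134 for Hemangioblast and 71.6 and 50.8 for hCD4. The means were 140.1 ± 7.98 (SD, n = 2) and 61.2 ± 14.7, and the log2 change was 1.03 (SE 0.310, 95% interval 0.32 to 1.74, limma adjusted p = 0.125). Every Hemangioblast array was above every hCD4 array, with ratios of 1.88 to 2.87. On 161151_at the intensities were 72.4 and 75.5 against 42.1 and 46.3. These groups did not overlap either, and every value, in both groups, was below the lower quartile of its array. The log2 change was 0.58 (SE 0.321, 95% interval -0.16 to 1.32, limma adjusted p = 0.451). Under the 12 alternative settings the adjusted p of 102908_at was 0.0556 to 0.463.

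Ank1 was measured by 3 probe sets that gave different changes. In the array maker's naming, the ending _i marks a probe set with fewer unique probes than the design required. The endings _f and _s mark those whose probes may match further related transcripts. Ank1 is also transcribed outside red cells, in muscle and brain, with alternative first and last exons. On 100440_f_at the intensity was 471 and 510.5 for Hemangioblast and 324 and 295 for hCD4, with no overlap. Its means were 491 ± 28.0 (SD, n = 2) and 309 ± 20.7, and the log2 change was 0.64 (SE 0.185, 95% interval 0.21 to 1.07, limma adjusted p = 0.111). On 100441_s_at it was 153 and 115 against 83.3 and 119, and the groups overlapped. The log2 change was 0.36 (SE 0.312, 95% interval -0.35 to 1.08, limma adjusted p = 0.674). On 100439_i_at it was 471 and 576 against 481 and 507, and the groups overlapped again. The log2 change there was 0.07 (SE 0.182, 95% interval -0.34 to 0.49, limma adjusted p = 0.917), and it was -0.01 with median scaling. The upper bound of this interval excludes a 2-fold rise on that probe set, and those of the other Ank1 probe sets do not. Differences between the 3 probe sets were not tested.

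**Figure D2:**
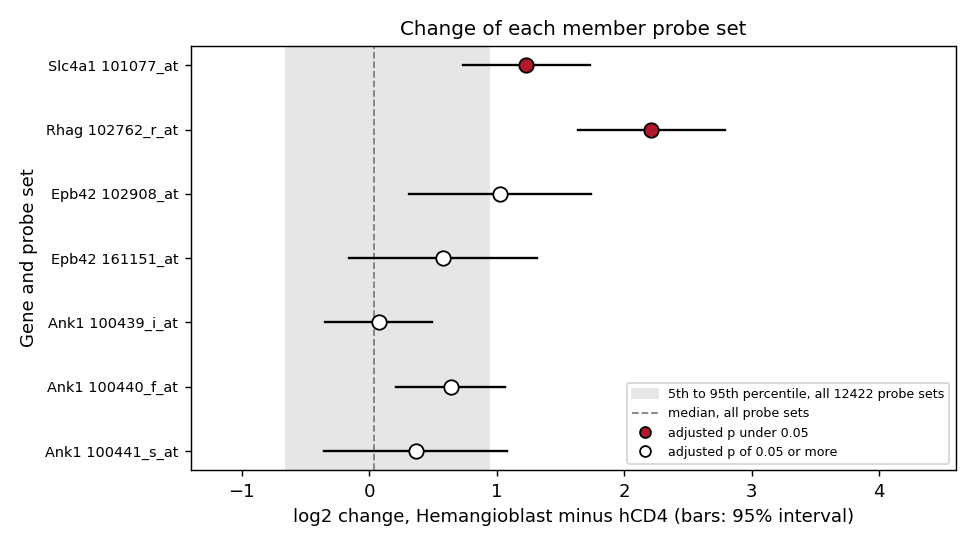
Log2 change (Hemangioblast minus hCD4) of each member probe set with its 95% interval, filled in red where the adjusted p was under 0.05; the grey band runs from the 5th to the 95th percentile of all 12422 probe sets (-0.66 to 0.94) and the dashed line is their median. Slc4a1, Rhag and Epb42 102908_at lie to the right of the band, and the other 4 probe sets lie within it.

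The arrays of a group also differed from each other. For Rhag the log2 difference of replicate 1 minus replicate 2 was -0.50 for Hemangioblast and 0.25 for hCD4. For Slc4a1 these differences were -0.37 and -0.04, and for Epb42 102908_at they were 0.10 and 0.39. For Ank1 100441_s_at they were 0.36 and -0.44, about as large as its log2 change between the groups. No array was the highest or the lowest of its group on all 7 probe sets. Outside the members, the scaled intensities of the 8 pluripotent markers counted below summed to 2474 on one hCD4 array and 4932 on the other. The cause of that difference was not tested.

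Sequence upstream of the transcription start was taken for Rhag and Epb42, the 2 of the 4 measured genes matched in the RefSeq promoter table (GRCm38.p6). Red cell genes are commonly bound by GATA1, which recognises GATA motifs, and by Klf1, which recognises CACCC boxes. The letters GATAA and CACCC were therefore searched on both strands in the 250 bases before the start, and a match of one can share at most 1 base with a match of the other. Printed 5′ to 3′ on the strand of the gene, with matches in capitals, are the bases up to the annotated start of the gene, chr17:40810899-40811098 on the plus strand for Rhag and chr2:121036878-121037127 on the minus strand for Epb42.
Rhag: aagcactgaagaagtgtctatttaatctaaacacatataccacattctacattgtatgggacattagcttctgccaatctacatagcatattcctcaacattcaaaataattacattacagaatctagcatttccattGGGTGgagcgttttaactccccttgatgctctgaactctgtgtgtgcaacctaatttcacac
Epb42: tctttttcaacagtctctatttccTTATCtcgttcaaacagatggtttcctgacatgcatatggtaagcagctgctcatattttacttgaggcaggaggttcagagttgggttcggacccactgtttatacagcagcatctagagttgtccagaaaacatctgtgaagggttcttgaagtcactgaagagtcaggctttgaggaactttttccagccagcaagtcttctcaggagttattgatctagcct
Positions below count back from the start that the table uses, which follows the last printed base directly for Epb42 and after 50 unprinted bases for Rhag, whose annotated gene begins earlier. The Rhag window held CACCC on the opposite strand, printed as GGGTG, beginning 112 bases before that start. It also held GATAA on the opposite strand 31 bases before it, in the part not printed. The Epb42 window held GATAA on the opposite strand, printed as TTATC, 226 bases before the start, and no CACCC. Among 32851 promoter windows of this length, 22.6% held GATAA, 52.0% held CACCC and 10.1% held both. A match is a description of the letters and shows no binding.

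Other genes of the red cell surface and skeleton did not move as one group. Of 50 such genes listed, 29 were measured, of which 5 rose, 2 fell and 22 did not pass, where 3.43% of all 8251 genes were called higher and 1.95% lower. The median log2 change of the 29 was 0.18, against 0.02 for all genes. Many of them are expressed in most cell types, and each is represented by its probe set with the highest mean. On 13 of the 29 both Hemangioblast arrays were above both hCD4 arrays, against 24.5% of all genes. On 6 of the 29 both were below, and the share of all genes for this direction is not given here. The counts of 5 and 2 became 4 and 1 without Hemangioblast replicate 1, 2 and 1 without Hemangioblast replicate 2, 4 and 0 without hCD4 replicate 1, and 2 and 0 without hCD4 replicate 2.

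Among the partners of the Rh and band 3 complexes, Cd47, a surface protein that inhibits engulfment by macrophages, rose. It was at 982 and 1066 for Hemangioblast and at 171 and 53.4 for hCD4 (log2 change 3.19, SE 0.402, limma adjusted p = 0.0034). Its second probe set, at 990.2 and 856 against 47.5 and 56.4, rose by 3.79 (adjusted p = 0.000135). Cd47 is not restricted to red cells. Rhd, the Rh protein that Rhag carries, was at 223 and 281 against 181 and 213, with no overlap but a log2 change of only 0.33 (SE 0.240, limma adjusted p = 0.605). Car2, the carbonic anhydrase that supplies bicarbonate to band 3, was at 3479 and 3794 against 3954 and 3972 (log2 change -0.12, adjusted p = 0.758).

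The remaining calls of this list were spread over other functions. Cd55, which protects cells from complement, rose by 1.43 (SE 0.261, limma adjusted p = 0.0205), from 86.7 ± 0.0692 (SD, n = 2) to 261 ± 34.1. Flot1, a scaffold of lipid rafts, rose by 1.18 (SE 0.217, adjusted p = 0.0211), and Vamp8, a vesicle fusion protein, rose by 1.57 (SE 0.153, adjusted p = 0.00089). Capza1, a subunit of the protein that caps actin filaments, rose by 0.65 (SE 0.142, adjusted p = 0.0409). The potassium-chloride cotransporter gene Slc12a7 fell, from 362 ± 40.0 (SD, n = 2) to 132 ± 35.2 (log2 change -1.36, SE 0.258, adjusted p = 0.0237), and so did Slc29a1, the nucleoside transporter of the red cell membrane (-0.79, SE 0.151, adjusted p = 0.0245). On its other probe set Slc29a1 had a log2 change of 0.02 (adjusted p = 0.991), while Vamp8 on its other one rose by 2.11 (adjusted p = 0.00145). Cd47 and Vamp8 passed with any 1 array left out. With 1 array left out, the adjusted p reached 0.145 for Cd55, 0.125 for Flot1, 0.279 for Capza1, 0.162 for Slc12a7 and 0.224 for Slc29a1. Cd55, Flot1 and Capza1 missed the threshold whichever array was missing, while Slc12a7 passed only without Hemangioblast replicate 2 (0.0248) and Slc29a1 only without Hemangioblast replicate 1 (0.0215).

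Of the skeleton genes at the junction of spectrin and actin, Add1, which encodes alpha-adducin, was at 1490.4 and 1782 for Hemangioblast and 1113 and 1058 for hCD4. Its log2 change of 0.58 (SE 0.154, limma adjusted p = 0.0846) did not pass, although the groups did not overlap. Mpp1, the p55 protein that binds protein 4.1, was at 1291 and 1501 against 1069 and 571 (0.82, SE 0.268, adjusted p = 0.155), and its hCD4 arrays lay far apart. Add1 passed without Hemangioblast replicate 1 (adjusted p = 0.0482) and Mpp1 without hCD4 replicate 1 (adjusted p = 0.0373). Dmtn, which encodes dematin, was at 0.939 and 5.34 against 0.936 and 1.09, far below the added constant, so no fold is given. Add2 and Tmod1 were not analysed here.

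Relatives of the members that serve mainly in other tissues were counted in the same way. Of 23 listed, 12 were measured, and 0 rose and 0 fell with limma at the adjusted threshold, while 3 were higher and 3 lower with no overlap of the groups. With 3.43% of all genes called higher and 1.95% lower, the counts called do not set the relatives apart from other genes. Nor does the count higher with no overlap, where 24.5% of all genes were so. The share of all genes lower with no overlap is not given here, so nothing is read from the 3 lower ones. The median log2 change was 0.10. Sptan1 and Sptbn1, the alpha- and beta-spectrins of most other cells, had the 2 smallest adjusted p-values. Sptan1 was at 736 and 1047 for Hemangioblast and 1340 and 1373 for hCD4 (log2 change -0.62, SE 0.189, limma adjusted p = 0.130). Sptbn1 was at 2424 and 2152 against 2921 and 3015 (-0.38, SE 0.140, adjusted p = 0.221). Both were lower on each Hemangioblast array than on each hCD4 array, and Sptan1 passed only without Hemangioblast replicate 2 (adjusted p = 0.0298). Slc4a2, the anion exchanger of most tissues, was at 355 and 365 against 396 and 300.2 (0.06, SE 0.209, adjusted p = 0.947, and -0.02 with median scaling). The log2 change was 0.09 for Ank3 (adjusted p = 0.929) and 0.10 for the protein 4.1 relative Epb41l2 (adjusted p = 0.905). Tgm2, a transglutaminase and so a relative of protein 4.2, was at 123 and 106 against 31.2 and 76.7 (0.98, SE 0.392, adjusted p = 0.260). Whether members and relatives differ in change was not tested.

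**Figure D3:**
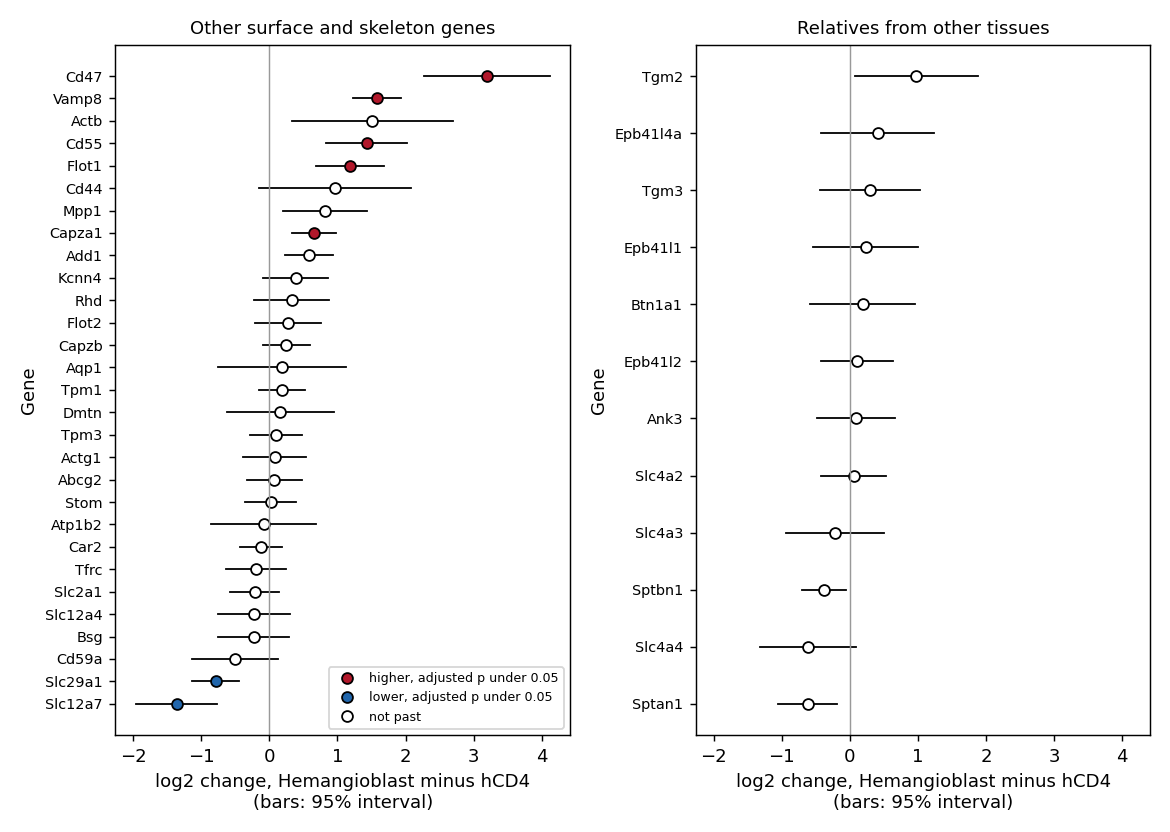
Log2 change (Hemangioblast minus hCD4) with its 95% interval for the 29 other surface and skeleton genes (left) and the 12 relatives from other tissues (right), 1 probe set a gene, in red where higher and blue where lower at an adjusted p under 0.05. Cd47, Vamp8, Cd55, Flot1 and Capza1 are red, Slc12a7 and Slc29a1 are blue, and no relative is filled.

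Most other markers of red cells were also higher on the Hemangioblast arrays. Of 13 measured erythroid markers 10 rose and 0 fell. The sum of their scaled intensities, most of it from globin genes, was 41809 to 44813 for Hemangioblast and 15171 to 16815 for hCD4. Alas2, the first enzyme of heme synthesis in red cells, changed by 1.95, and the nuclear regulator Hemgn by 2.32 (SE 0.290, limma adjusted p = 0.00329), whereas a second Hemgn probe set changed by 0.53 (adjusted p = 0.489). The transcription factor genes Klf1 (log2 change 0.35, adjusted p = 0.282) and Gata1 (0.52, adjusted p = 0.249) did not pass. Tfrc, the transferrin receptor gene, did not pass either and had a change of the opposite sign (-0.20, adjusted p = 0.725). No erythroid marker was at 0, since the lowest value was 40.5, for Hemgn.

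Markers of other cell types differed between the groups as well. All 8 myeloid markers rose, with summed intensities of 8335 to 9204 against 290 to 365 and a lowest value of 2.67, for Ptprc. Of 6 megakaryocyte markers 4 rose and 0 fell (1712 to 1853 against 360.04 to 434). Of 8 pluripotent markers 0 rose and 3 fell (956 to 1049 against 2474 to 4932), and of 7 endothelial markers 1 rose and 1 fell (4056 to 4819 against 4636 to 5480). Kdr, the endothelial marker that fell, was at 648 and 570 for Hemangioblast and 1625 and 2003 for hCD4. The hCD4 arrays held the globin transcript Hba-x at 5386 and 5763 and the pluripotent marker Dppa5a at 1397 and 745. Which cells the titles stand for was not tested. The part of these markers' cells in the changes of the members was not tested either.

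The genes whose 4 log2 values, centred on their mean, lay closest to those of Slc4a1 are in none of the red cell lists used here. Among 8250 other genes the nearest by Euclidean distance over the 4 arrays were Irf8, a transcription factor of myeloid cells (distance 0.0956), Il1r2, a decoy receptor for interleukin-1 (0.0990), Med12l (0.0992), the lysosomal mannosidase gene Man2b1 (0.139) and Gnaz, a G protein subunit gene (0.140). Gnaz was at 16.3 and 24.9 against 0.936 and 1.09, so the added constant sets its change (1.10 as reported, 3.39 with a constant of 1 and 0.38 with 64) and with it this distance. Irf8 was at 488 and 577 for Hemangioblast and 218 and 222 for hCD4. Among the members, Epb42 102908_at was nearest to Slc4a1 at a distance of 0.496, with 186 genes nearer. Rhag was at 1.01, with 1584 genes nearer. Over 4 arrays in 2 groups this likeness is mostly the size of the change, and it is a description with no test.

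**Figure D4:**
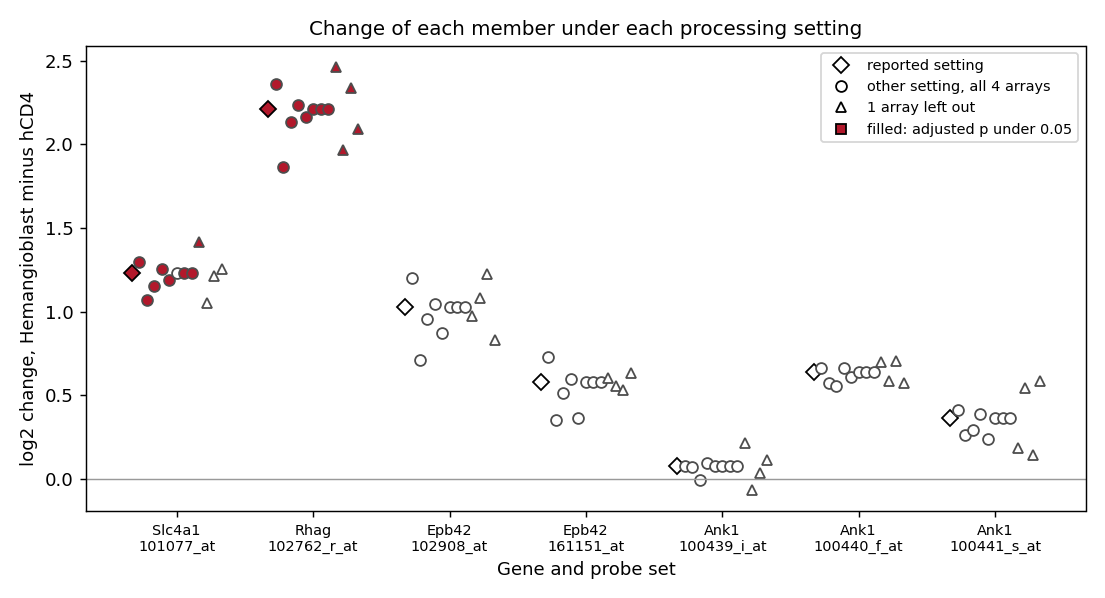
Log2 change (Hemangioblast minus hCD4) of each member probe set under the reported setting (diamonds), the 8 alternatives that use all 4 arrays (circles) and the 4 that leave 1 array out (triangles), filled in red where the adjusted p was under 0.05. All points of Rhag are filled, Slc4a1 has open points only without a trend and with 1 array left out, and only Ank1 100439_i_at crosses 0.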

How the data were processed

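For 12488 probe sets the authors deposited a linear intensity on every array. How it was computed, corrected for background and scaled is not stated in the labels. Per array, 1.16 to 1.27% of values were exactly 1, and trimmed means ran from 334 to 389. All 4 value columns were used.

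After 66 controls were left out, each array was scaled to the average trimmed mean (2% trimmed at each end), and log2(scaled intensity + 16) was fitted with limma 3.58.1 in R 4.3.3 (lmFit, eBayes with an intensity trend, no block, 2 residual and 6.18 prior degrees of freedom). Tests are two-sided. The fit was also run on simulated data with spread drawn from this same fit, which cannot show that calls hold on these arrays. Of the probe sets, 10833 have 1 symbol in the platform annotation, 396 several and 1193 none; gene identifiers changed 0 symbols. Other genes are represented by their brightest probe set. Figures were drawn with matplotlib 3.10.9.

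The members and gene lists were chosen with earlier results of these data known. Every member probe set was to be named, as were Add2, Dmtn, Tmod1, Sptbn1, Sptan1, Ank3, Epb41l2, Epb41l3, Slc4a2, Tgm2 and those past the threshold in each list (up to 8 and 6), plus the 5 genes nearest to Slc4a1. Rhd, Car2, Add1, Mpp1, second probe sets and the cell type markers were named after their values were seen. Epb41l3 was not analysed here. Alternatives were an added constant of 1 or 64, median, no or quantile scaling, no trend, dim probe sets (mean under 50) left out, a replicate block, and leaving out each array.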

Additional observations from a re-analysis of the deposited data

How the results depend on the processing

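Rhag stayed past the threshold under all 12 alternatives, with a log2 change of 1.87 to 2.46. Slc4a1 stayed past it in 7 of the 8 that use all 4 arrays and in 1 of the 4 that leave out an array, with a change of 1.05 to 1.42. No Epb42 or Ank1 probe set passed under any of them. The count of 2 member probe sets called higher was 1 without an intensity trend and 1 to 2 with 1 array left out. All probe sets past the threshold, 556 as reported, were 272 without scaling, 220 without a trend, 883 with dim probe sets left out and 219 to 517 with 1 array left out. In the wider list, 3 genes were higher and 0 lower without scaling and likewise without a trend, 1 was lower with median scaling, and with 1 array left out 2 to 4 were higher and 0 to 1 lower. Among the relatives 0 to 1 were lower with 1 array left out. With median scaling the change of Ank1 100439_i_at was -0.0098 and that of Slc4a2 -0.024. With 1 array left out, the changes that took either sign ran from -0.067 to 0.22 for Ank1 100439_i_at, -0.13 to 0.25 for Slc4a2, -0.18 to 0.38 for Epb41l2, -0.062 to 0.24 for Ank3 and -0.44 to 0.050 for Tfrc. None of these passed. The cause was not tested, beyond fewer arrays or fewer probe sets where these were left out.

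With the replicate number of the titles as a replicate block, 2 member probe sets were higher and 0 lower, and 710 probe sets passed in all. Deviations of same-numbered arrays correlated with r = -0.01 across probe sets, so the numbers were not taken as a pairing. Over all probe sets, the median SE of the log2 changes was 0.27, and the number of arrays limits what every probe set can show.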
